A study of Odorrana tormota with 4 samples.

Results

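The antioxidant and glutathione enzymes expressed in the brain of *O. tormota*, the concave-eared torrent frog, were compared between females and males. A unigene (a non-redundant assembled transcript) was taken when the gene symbol of its Swiss-Prot match began with GPX, PRDX, SOD, TXN, GST, MGST or GCL, or was GSR, GSS or SRXN1, and when its best match in the non-redundant protein database (NR) came from *Xenopus*, *Rana*, *Bufo* or *Odorrana*. This gave 50 unigenes of the 197684 in the table, which were summed to 40 genes of the 12140 with a frog match. The study asked which brain transcripts differ between the sexes of this frog, whose males but not females are known to respond to ultrasound. Brain RNA of wild-caught adults was sequenced in 4 libraries, and each library was a pool of frogs of 1 sex. The female pools F1 and F2 held 2 frogs each and the male pools M1 and M2 held 4 frogs each, with no treatment in either sex. The number of frogs per pool therefore went with sex, and the 2 cannot be told apart.

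Reactive oxygen species arise in mitochondria and oxidases as cells use oxygen, and the brain, with its high oxygen use and its unsaturated membrane lipids, is known as a tissue that they can damage. Superoxide dismutases turn superoxide into hydrogen peroxide, which catalase, glutathione peroxidases and peroxiredoxins then reduce to water. Glutathione peroxidases draw electrons from glutathione and most peroxiredoxins draw them from thioredoxin, and both carriers are recharged with NADPH by their reductases. Glutathione transferases join glutathione to reactive compounds, so they draw on the same pool of glutathione.

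Expression was given as FPKM (fragments per kilobase of transcript, scaled to the mapped fragments of the library), which accounts for transcript length. Levels can be set side by side between genes only roughly. Assembled unigenes can be fragments, and a sum over several of them need not equal the level of the whole transcript. Of the 40 genes, 37 had at least 1 FPKM in at least 2 pools and were tested with limma among 9902 genes. TXNRD1, the cytosolic thioredoxin reductase, had 1.26 FPKM (F1), 0.691 (F2), 0.505 (M1) and 0.790 (M2) and was not tested. GPX5 was at 1.91 FPKM in M1 and was listed at 0 in the other pools. The remaining untested entry bore a *Tetraodon* locus tag that begins with GST and had 0.387 FPKM at most. Its Swiss-Prot description names no transferase, which leaves 39 genes of the named families. Of the 50 unigenes, 26 matched *X. tropicalis*, 20 *X. laevis* and 4 *Rana catesbeiana* in NR, whereas the symbols came mostly from mammalian entries of Swiss-Prot. A symbol thus gives the closest described protein, and members of multigene families such as the glutathione transferases may not be the same copy as in mammals. KEGG glutathione metabolism was annotated for 18 of the 40 genes and the GO term response to oxidative stress for 9.

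The FPKM of all unigenes summed to between 669260 and 717478 per pool, and between 9476 and 10020 frog-matched genes reached 1 FPKM. The study gives similar read totals for the libraries, but read counts per unigene were not used here, so the counting error of a value is unknown. The whole group summed to 1508 FPKM (F1), 1829 (F2), 1571 (M1) and 1543 (M2), which was 0.572%, 0.647%, 0.579% and 0.565% of the FPKM of all frog-matched genes. GPX4, PRDX5, SOD1 and GPX3 together held from 48.7% of this sum in F2 to 53.6% in M2.

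**Figure D1:**
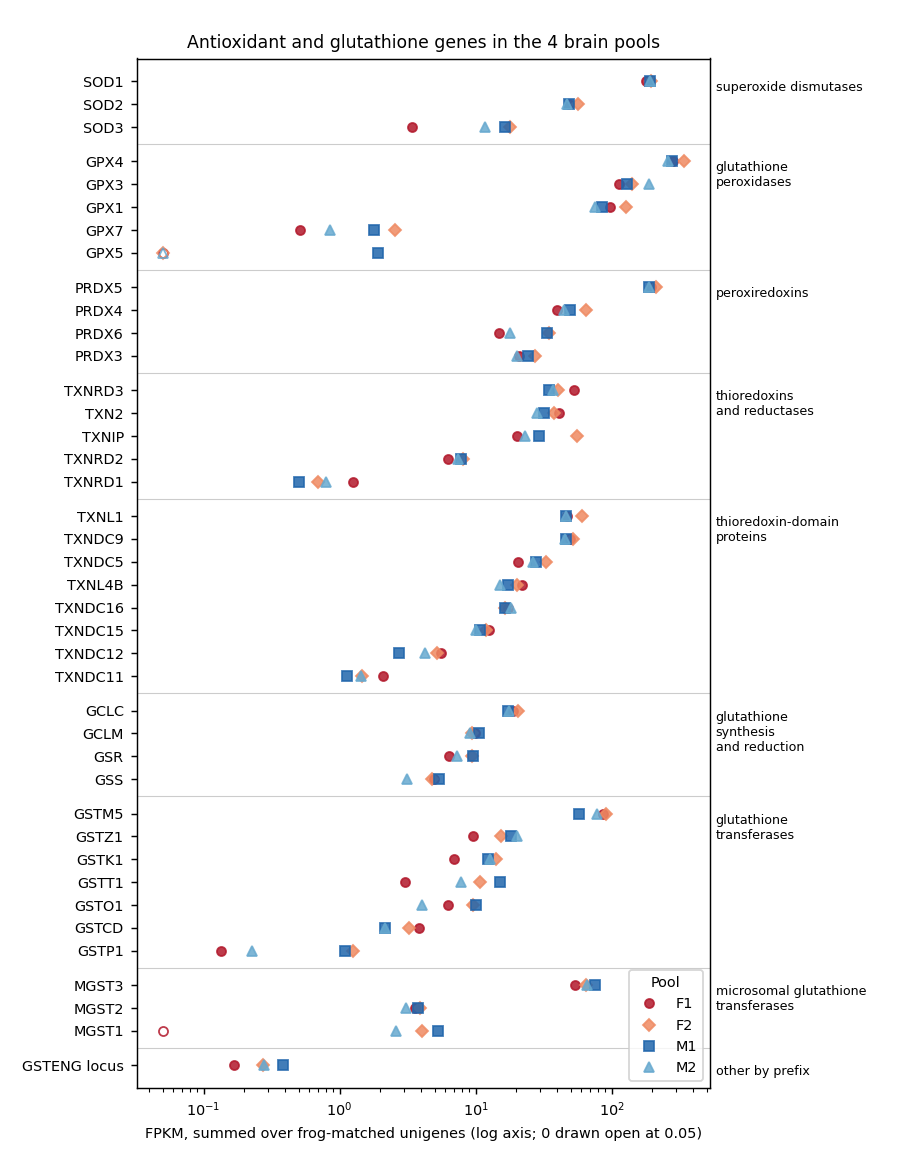
Expression level of the 40 genes in each of the 4 pools, as FPKM on a log axis with the genes grouped by family and values of 0 drawn as open symbols at 0.05. The levels run from 340 FPKM for GPX4 in F2 to genes under 1 FPKM, and the pools of 1 sex lie far apart for SOD3, GPX7, GSTT1, GSTP1 and MGST1.

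None of the 37 genes passed an adjusted p of 0.05 between the sexes in limma, where 0% of all tested genes did. The smallest adjusted p of any gene was 0.514, and 916 genes had an unadjusted p under 0.05. Among the 37, the unadjusted p was under 0.05 with the higher level in females for TXN2, GSTCD, TXNL4B and GPX1, which is 4 genes or 10.8% against 5.76% of all genes. It was under 0.05 with the higher level in males for 0 of the 37 genes, against 3.49% of all genes. The median difference, female minus male on the log2(FPKM + 0.5) scale, was 0.11 over the 37 genes and 0.05 over all genes, and 33 of the 37 lay between the 5th and the 95th percentile of all genes (-0.50 and 0.61). With 2 pools per sex an exact two-sided permutation test cannot go below a p of 0.333.

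**Figure D2:**
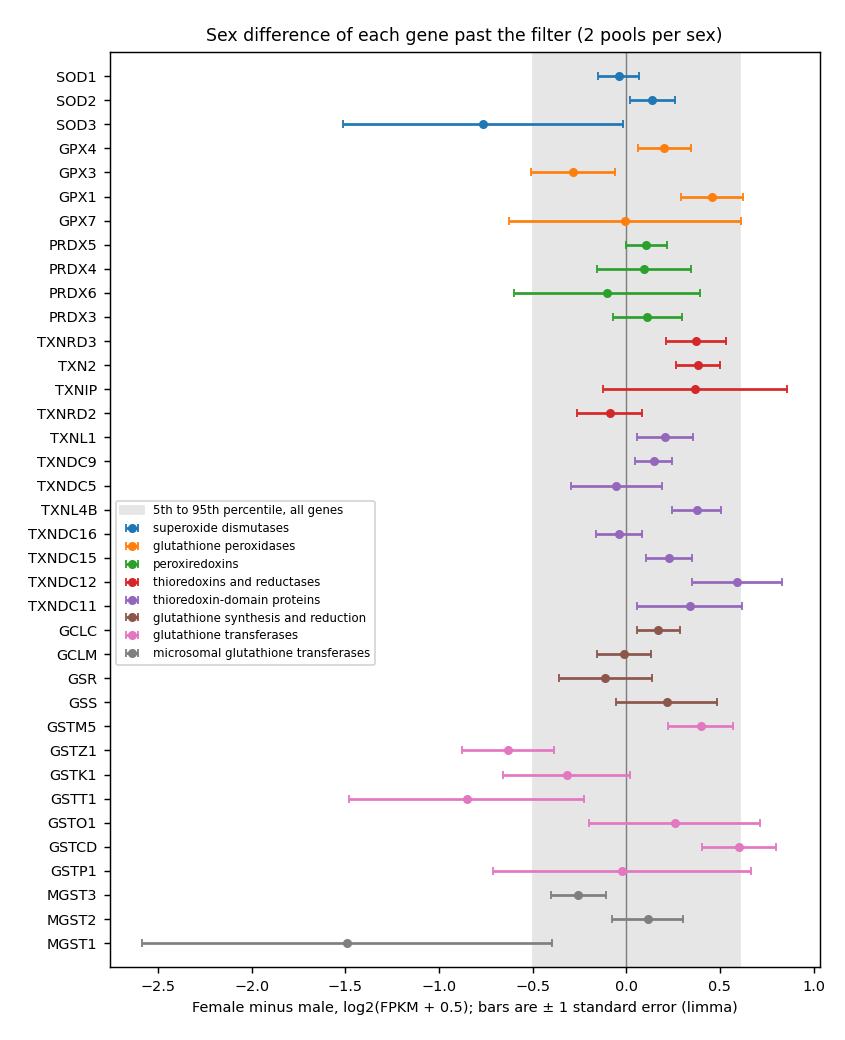
Female minus male difference of log2(FPKM + 0.5) for the 37 tested genes, coloured by family, with bars of 1 standard error from limma (2 pools per sex). The grey band spans the 5th to the 95th percentile of all 9902 genes, from -0.50 to 0.61, and MGST1, GSTT1, SOD3 and GSTZ1 lie outside it on the male side.

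Superoxide dismutases were led by SOD1, the copper and zinc enzyme of the cytosol, with 178 FPKM (F1), 196 (F2), 193 (M1) and 192 (M2). Almost all of it came from 1 of 3 unigenes, and the sexes differed by -0.04 ± 0.11 (log2, SE from limma). SOD2, the manganese enzyme of mitochondria, had 48.9 and 56.8 FPKM in females and 48.6 and 47.1 in males (difference 0.14 ± 0.12, adjusted p = 0.722 in limma). The sexes overlapped for SOD1, and for SOD2 both female pools lay just above the male pools. SOD3, the enzyme secreted to the extracellular space, had 3.42 FPKM in F1 but 17.8 in F2, 16.5 in M1 and 11.7 in M2. F1 alone was low, F2 lay above both male pools, and the sex difference of -0.77 had an SE of 0.75. Without F1 it was 0.35.

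Glutathione peroxidases had the highest summed level of the families, with 495 FPKM (F1), 612 (F2), 499 (M1) and 523 (M2). GPX4, the selenoenzyme that reduces lipid peroxides within membranes, was the most abundant gene of the group with 284 FPKM (F1), 340 (F2), 281 (M1) and 259 (M2). Both female pools lay above both male pools by a small margin, and the difference was 0.20 ± 0.14 (adjusted p = 0.649 in limma). GPX3, which is secreted and best known from blood plasma, had 114 and 142 FPKM in females and 129 and 187 in males. These overlapped, with M2 highest and a difference of -0.28 ± 0.22, which ran from -0.55 to -0.017 with 1 pool left out.

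GPX1, the cytosolic enzyme that reduces hydrogen peroxide, had 97.1 FPKM (F1), 127 (F2), 85.6 (M1) and 76.2 (M2). The sexes did not overlap and the female mean of FPKM + 0.5, on which all ratios of sex means were taken, was 1.38-fold the male mean. On the log2 scale the difference was 0.46 ± 0.17, with an unadjusted p of 0.0431 and an adjusted p of 0.527 in limma. With 1 pool left out it ran from 0.26 to 0.65. GPX7, an enzyme of the endoplasmic reticulum, was low in all pools, with 0.514 FPKM (F1), 2.54 (F2), 1.80 (M1) and 0.856 (M2), and its difference of -0.01 ± 0.62 carried no direction.

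Peroxiredoxins were led by PRDX5, which works in mitochondria, peroxisomes and the cytosol, with 194 FPKM (F1), 213 (F2), 189 (M1) and 189 (M2). Its female pools lay just above the male pools (0.11 ± 0.11). PRDX4, the peroxiredoxin of the endoplasmic reticulum, had 39.4 and 64.4 FPKM in females, which enclosed the 49.4 and 44.9 of the male pools. PRDX3, the mitochondrial one, had 21.0 FPKM (F1), 27.4 (F2), 24.5 (M1) and 20.1 (M2). PRDX6, which unlike the others takes its electrons from glutathione, had 14.9 FPKM in F1 and 17.9 in M2 against 34.9 in F2 and 33.6 in M1. It was therefore split within each sex, and not between the sexes, whose difference was -0.10 ± 0.49.

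Thioredoxin 2 (TXN2), the thioredoxin of mitochondria, had the smallest p of the group. Its level was 40.9 FPKM (F1), 37.7 (F2), 31.7 (M1) and 28.5 (M2). The female pools lay above the male pools by 1.30-fold in the mean of FPKM + 0.5, with a difference of 0.38 ± 0.12, an unadjusted p of 0.0243 and an adjusted p of 0.514 in limma. TXNRD3, a reductase that in mammals acts on both thioredoxin and glutathione, had 53.1 and 40.6 FPKM in females and 34.6 and 36.9 in males (0.37 ± 0.16, adjusted p = 0.535 in limma, and 0.18 to 0.56 with 1 pool left out). TXNRD2, the reductase that serves TXN2, was at 6.29 FPKM (F1), 8.10 (F2), 7.86 (M1) and 7.40 (M2) and overlapped between the sexes. The substrate and its reductase of the mitochondrion thus had unlike orders of the pools. TXNIP, the protein that binds and inhibits thioredoxin, had 20.2 FPKM in F1 and 56.2 in F2, against 29.3 and 23.2 in males. Its difference of 0.37 ± 0.49 rested on F2 and was -0.36 without that pool.

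Summed over thioredoxins, reductases and TXNIP, the level was 122 FPKM (F1), 143 (F2), 104 (M1) and 96.8 (M2). This was 1 of 2 families whose female sums both lay above the male sums, by 0.40 on the log2 scale with a pooled SD of 0.13 (n = 2 pools per sex). TXNIP, which is neither a thioredoxin nor a reductase, made up 20.2 FPKM (F1), 56.2 (F2), 29.3 (M1) and 23.2 (M2) of the sum. The cytosolic thioredoxin TXN is outside this sum, since none of its unigenes had a frog match, and with its unigenes of any NR match added the sums were 165 FPKM (F1), 198 (F2), 166 (M1) and 149 (M2), a difference of 0.20 in which the sexes overlapped. The other family was the thioredoxin-domain proteins, with sums of 177 and 201 FPKM in females and 169 and 167 in males (0.17, pooled SD 0.090, and from 0.077 to 0.26 with 1 pool left out). The remaining families overlapped between the sexes.

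**Figure D3:**
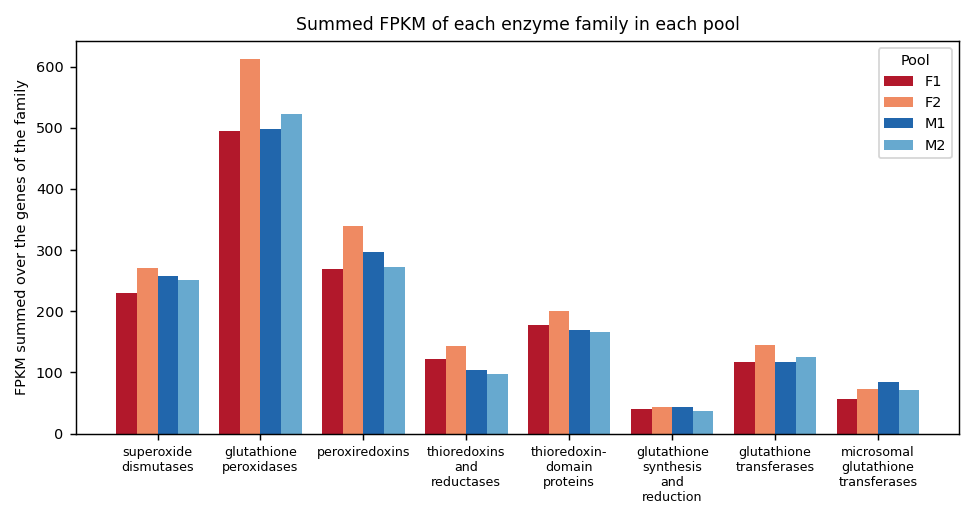
FPKM summed over the genes of each of the 8 families, with 1 bar for each pool and the axis from 0. The glutathione peroxidases reach 612 FPKM in F2, and both female bars exceed both male bars for the thioredoxins and reductases (122 and 143 against 104 and 96.8) and the thioredoxin-domain proteins (177 and 201 against 169 and 167). The thioredoxins and reductases include TXNIP.

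Thioredoxin-domain proteins share the thioredoxin fold, but several are chaperones or splicing factors and not antioxidant enzymes. TXNL1, which binds the proteasome in mammals, had 47.3 FPKM (F1), 60.4 (F2), 46.6 (M1) and 46.0 (M2). TXNDC9, a regulator of chaperonin folding, had 49.9 and 51.7 FPKM in females and 46.3 and 45.4 in males. TXNDC5, a protein disulfide isomerase of the endoplasmic reticulum, had 20.6 FPKM in F1 and 33.2 in F2 around male values of 28.1 and 26.3. Of these, TXNL1 and TXNDC9 had both female pools above both male pools, by 0.21 ± 0.15 and 0.15 ± 0.10. TXNL4B, a protein of pre-mRNA splicing, had 21.9 FPKM (F1), 20.3 (F2), 17.3 (M1) and 15.0 (M2), a difference of 0.38 ± 0.13 with an unadjusted p of 0.0364 and an adjusted p of 0.523 in limma. TXNDC12, an oxidoreductase of the endoplasmic reticulum, had 5.60 and 5.23 FPKM in females and 2.74 and 4.26 in males, and its female mean of FPKM + 0.5 was 1.48-fold the male mean (adjusted p = 0.531 in limma). TXNDC15 also had both female pools above both male pools, at 12.6 and 12.0 FPKM against 10.8 and 10.1. TXNDC11 and TXNDC16, which the rule for named genes left to a range, lay between 1.14 and 18.3 FPKM, and TXNDC16 was the only gene of the 37 with its lowest value in F2.

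The genes of glutathione synthesis and reduction summed to between 37.1 FPKM (M2) and 44.0 (F2). GCLC, the catalytic subunit of the enzyme that limits the rate of synthesis, had 19.0 FPKM (F1), 20.5 (F2), 17.2 (M1) and 17.7 (M2) (0.17 ± 0.11, adjusted p = 0.642 in limma). GCLM, its modifier subunit, had 9.98 and 9.40 FPKM in females and 10.6 and 9.04 in males, a difference of -0.01 ± 0.14. By summed FPKM the catalytic subunit was thus above the modifier subunit in every pool. GSS, which completes glutathione, had 4.92, 4.79 and 5.36 FPKM in F1, F2 and M1 and 3.13 in M2. GSR, which returns oxidised glutathione to its reduced form, had 6.34 FPKM (F1), 9.35 (F2), 9.65 (M1) and 7.25 (M2). Neither was separated by sex.

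Glutathione transferases of the cytosol and mitochondria held 3 of the 4 genes whose sex means of FPKM + 0.5 were over 1.5-fold apart. GSTM5, of the mu class, was the most abundant, with 86.5 FPKM (F1), 91.0 (F2), 57.6 (M1) and 78.4 (M2) (0.40 ± 0.17, adjusted p = 0.535 in limma, and 0.18 to 0.62 with 1 pool left out). Both female pools lay above both male pools, with M1 the lowest. GSTCD, named for a transferase C-terminal domain, had 3.87 and 3.22 FPKM in females and 2.15 and 2.16 in males. Its female mean of FPKM + 0.5 was 1.53-fold the male mean, and the difference of 0.60 ± 0.20 had an unadjusted p of 0.0299 and an adjusted p of 0.523 in limma.

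GSTZ1, the maleylacetoacetate isomerase of tyrosine breakdown, lay the other way. It had 9.54 FPKM (F1), 15.4 (F2), 18.1 (M1) and 20.0 (M2), so that both male pools were above both female pools and the male mean of FPKM + 0.5 was 1.51-fold the female mean. The difference was -0.63 ± 0.25 with an adjusted p of 0.531 in limma, and ran from -0.96 to -0.30 with 1 pool left out. GSTK1, of mitochondria and peroxisomes, had 6.95 FPKM in F1 and between 12.4 and 14.2 in the other pools. GSTT1, of the theta class, had 3.04 FPKM (F1), 10.8 (F2), 15.1 (M1) and 7.82 (M2), and its male mean of FPKM + 0.5 was 1.62-fold the female mean although the sexes overlapped. Without F1, the lowest pool, the difference of GSTT1 was -0.017, against -0.85 ± 0.63 with it. GSTO1 and GSTP1 lay between 0.135 and 10.1 FPKM, both with F1 and M2 below F2 and M1.

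Microsomal glutathione transferases sit in membranes and also act on lipid mediators and lipid peroxides. MGST3 had 53.7 and 65.3 FPKM in females and 75.8 and 66.1 in males, the only gene beside GSTZ1 with both male pools above both female pools (-0.26 ± 0.15, adjusted p = 0.606 in limma). Its 2 unigenes differed in this. The more abundant had 39.5 FPKM in both female pools and 56.3 and 46.7 in males. The other overlapped, with 14.2 FPKM (F1), 25.8 (F2), 19.5 (M1) and 19.4 (M2). MGST2, which can form leukotriene C4, had 3.58, 3.94, 3.80 and 3.09 FPKM in F1, F2, M1 and M2. MGST1 was listed at 0 in F1 and had 4.06 FPKM in F2, 5.34 in M1 and 2.59 in M2. F1 thus set the direction of MGST1. Without F1 its difference was 0.10, against -1.49 ± 1.09 with it.

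In total, both female pools lay above both male pools for 15 of the 37 genes (40.5%), against 26.5% of all genes, and both male pools lay above for 2 (5.41%), against 16.4%. When each pool was divided by its median ratio to the geometric mean, these counts were 10 (27.0%, against 21.3%) and 3 (8.11%, against 20.8%). All 10 were among the 15, namely GPX1, TXN2, TXNRD3, TXNL4B, TXNDC9, TXNDC12, TXNDC15, GCLC, GSTM5 and GSTCD, whereas GPX4, PRDX5, SOD2, TXNL1 and TXNDC11 no longer separated the sexes. Of the 15, TXNL1, TXNL4B, TXNDC9, TXNDC11, TXNDC12 and TXNDC15 were thioredoxin-domain proteins, several of which are not antioxidant enzymes. TXNL4B, TXNDC9, TXNDC12 and TXNDC15 were also among the 10. The counts were not made without this family. Over 1.5-fold apart in the sex means of FPKM + 0.5 were GSTCD on the female side, 1 gene or 2.7% against 6.22% of all genes, and GSTZ1, GSTT1 and MGST1 on the male side, 3 genes or 8.11% against 3.4%. Of these 4, only GSTCD and GSTZ1 did not overlap between the sexes. Without F2 the number of genes over 1.5-fold apart was 10, of which 8 were higher in males, and without F1 it was 4, all higher in females, so that no gene was then over 1.5-fold higher in males. With 0.1 added in place of 0.5 it was 5, of which 2 were higher in females, and after median-ratio scaling it was 3 with 0 higher in females. Compartments, taken from where the mammalian enzymes act, were assigned after values were seen. By these the median difference was 0.11 for 5 mitochondrial genes, 0.17 for 17 cytosolic genes and -0.02 for 8 genes of the secretory pathway. PRDX5 was counted as mitochondrial only, and GSTK1 was among the genes placed in none of these sets.

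The pools of 1 sex differed from each other in a way that several of the genes shared. F2 was the highest pool for 20 of the 37 genes (54.1%, against 31% of all genes) and the lowest for 1 (2.7%, against 20.3%). F1 was the lowest for 16 (43.2%, against 26.2%) and M2 for 14 (37.8%, against 28.4%). F1 and M2 both lay below F2 and M1 for 15 genes (40.5%, against 19%), which were SOD1, SOD3, GPX7, PRDX3, PRDX4, PRDX6, TXNIP, TXNRD2, TXNDC5, GSR, GSTT1, GSTO1, GSTP1, MGST1 and MGST2. After scaling by median ratios this count was 17 (against 18.1%) and after quantile normalization 19 (against 14.4%). These are orders of single pools, and no test was made on them.

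By size, F2 was over 1.5-fold above F1 for 11 of the 37 genes (29.7%, against 11.1% of all genes), and F1 was over 1.5-fold above F2 for 0 (against 4.37%). M1 was over 1.5-fold above M2 for 7 (18.9%, against 7.54%), and M2 over 1.5-fold above M1 for 0 (against 3.04%). Both held for 5 genes, GPX7, PRDX6, GSTT1, GSTP1 and MGST1, which is 13.5% against 3.75% of all genes. Among these, the ratio of F2 to F1, taken on FPKM + 0.5, ran from 2.30 for PRDX6 to 9.12 for MGST1, and that of M1 to M2 from 1.69 for GPX7 to 2.19 for GSTP1. On the log2 scale the distance between the female pools exceeded the sex difference for all 5 genes, and that between the male pools did so for all but MGST1. Since the 5 genes were picked for large distances within each sex, this follows in part from the choice. Female pools held 2 frogs and male pools 4, and the part of pool size in these distances was not tested.

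**Figure D4:**
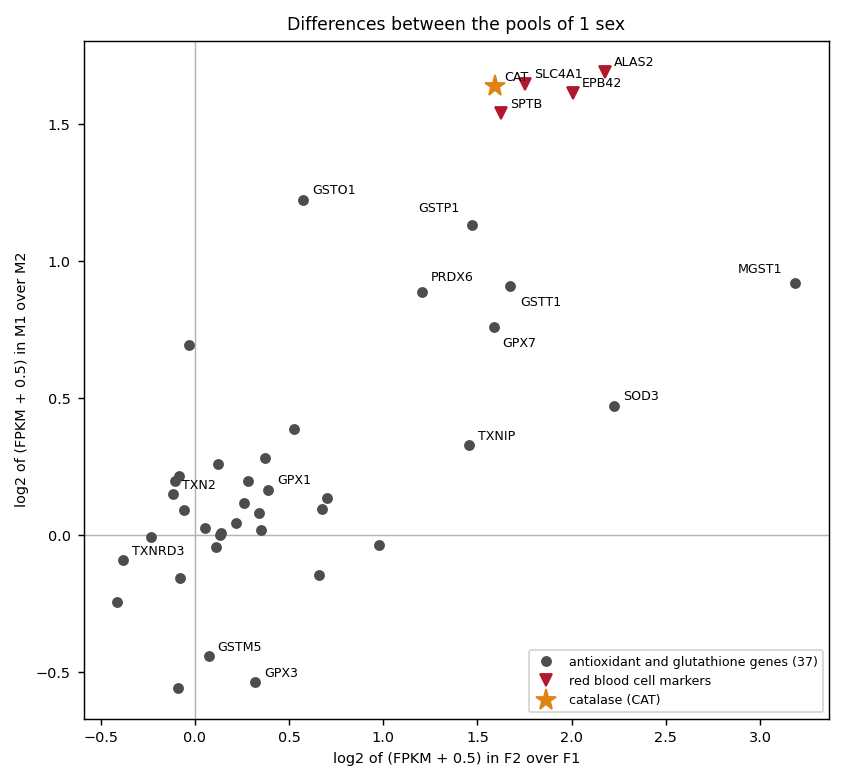
Log2 ratio of F2 to F1 (horizontal) and of M1 to M2 (vertical), both on FPKM + 0.5, for the 37 tested genes (circles), 4 red blood cell markers (triangles) and catalase (star). PRDX6, GPX7, GSTT1, GSTP1 and MGST1 lie in the upper right part, below the markers ALAS2, SLC4A1, EPB42 and SPTB, whereas TXN2 and GSTM5 lie near 0 on the horizontal axis.

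Summed markers of some other cell types had the same order of pools. Of 18 red blood cell markers, 5 were found with a frog match, and their summed level was 21.7 FPKM (F1), 93.4 (F2), 69.6 (M1) and 20.8 (M2). ALAS2, the heme synthesis enzyme of red blood cells, had 13.1 FPKM (F1), 60.8 (F2), 32.0 (M1) and 9.57 (M2), and no marker found was at 0. RHAG, which was too low to be tested, did not have this order, at 0.261 FPKM (F1), 0.267 (F2), 0.132 (M1) and 0.260 (M2). The hemoglobins were not among the frog-matched symbols and were not analysed here. For 5 of 8 markers of microglia and macrophages the sum was 26.2 to 38.3 FPKM in females and 27.7 to 48.3 in males, again with F1 and M2 lowest. Not every marker of this list had that order. CSF1R had 9.11 FPKM (F1), 8.31 (F2), 6.21 (M1) and 5.09 (M2). CTSS, at 22.2 FPKM in M1, had F2 (11.0) just below M2 (11.2). Keratins listed as skin markers (3 of 5, with KRT5 and KRT14 not found) had 12.7 and 49.0 FPKM in females and 146 and 14.9 in males. Different genes made up these sums. The F2 value was mostly KRT18 (46.2 FPKM) and the M1 value mostly KRT12 (120 FPKM, and 0 in F1). Endothelium markers (5 of 6) also had F1 and M2 lowest, with sums of 9.23 FPKM (F1), 12.9 (F2), 10.9 (M1) and 5.73 (M2). So did liver markers (3 of 8), at 0.445, 2.07, 2.85 and 1.80 FPKM. Single markers differed again, since TEK of endothelium had both female pools higher and APOA1 of liver both male pools. The part of these cells in the levels of PRDX6, SOD3, GSTT1 and the others was not tested, and in bulk RNA more cells of a type and more RNA per cell cannot be told apart.

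F2 also stood apart in markers of tissue next to the brain. Pituitary hormones (3 of 8 markers) summed to 3441 FPKM in F2, against 28.3 in F1, 321 in M1 and 615 in M2, and skeletal muscle markers (5 of 8) to 431 FPKM in F2, against 3.14 to 22.5 in the other pools. Neuron markers (6 of 10) were lowest in F2, with 1138 FPKM against 1401 to 1515, and astroglia markers (6 of 7) had 1439 to 1483 FPKM in females and 972 to 1096 in males. This gap came mostly from GLUL, the glutamine synthetase, at 1005 and 981 FPKM in females and 554 and 617 in males. Without GLUL the astroglia sums overlapped, at 479 FPKM (F1), 458 (F2), 418 (M1) and 479 (M2). SLC1A3 also had both female pools higher, at 240 and 217 FPKM against 180 and 197 in males. FABP7 had both male pools higher, at 225 and 266 FPKM against 217 and 224 in females. The part of these tissues in the 20 genes that were highest in F2, and of the cells that express GLUL in the 15 genes with higher female pools, was not tested.

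Among 50 genes of the same chemistry outside the symbol rule, 44 were found and 40 tested. None passed an adjusted p of 0.05 in limma, 3 had an unadjusted p under 0.05 with the higher level in females (7.5%, against 5.76% of all genes) and 0 with the higher level in males (against 3.49%). Their median difference was 0.18, against 0.11 for the 37 genes and 0.05 for all. Both female pools lay above both male pools for 11 of the 40 (27.5%), near the 26.5% of all genes and below the 40.5% of the 37. Both male pools lay above for 2 (5%, against 16.4% of all genes). F2 was highest for 24 of the 40 (60%, against 31% of all genes). Catalase (CAT), which breaks down hydrogen peroxide directly, had 9.50 FPKM (F1), 29.7 (F2), 27.2 (M1) and 8.40 (M2), the same split within each sex as PRDX6. MSRB2, which repairs oxidised methionine in mitochondria with electrons from thioredoxin, had 15.1 and 16.4 FPKM in females and 11.4 and 8.47 in males (0.65 ± 0.18, unadjusted p = 0.0162 and adjusted p = 0.514 in limma).

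SEPHS2, which supplies the selenium donor for selenoproteins such as GPX1 and GPX4, had 11.9 and 12.0 FPKM in females and 8.85 and 9.47 in males (0.37 ± 0.12, adjusted p = 0.523 in limma). Of the 5 tested genes of selenoprotein synthesis, 4 were higher in females, 3 of them with both female pools above both male pools. EEFSEC was higher in males (-0.15 ± 0.17). Not all selenoproteins of the group had higher female pools. GPX3 and TXNRD2 overlapped between the sexes (-0.28 ± 0.22 and -0.09 ± 0.17), whereas TXNRD3 had both female pools above both male pools (0.37 ± 0.16). The part of SEPHS2 in the levels of GPX1, GPX4 and these genes was not tested. HPGDS, the glutathione-dependent prostaglandin D synthase, had 8.58 and 10.1 FPKM in females and 5.75 and 7.21 in males. NFE2L2, the transcription factor Nrf2 that drives many of these genes in mammals, had 21.2 FPKM (F1), 35.2 (F2), 32.0 (M1) and 24.6 (M2), and KEAP1, which restrains it, had 21.7 and 23.7 in females and 19.1 and 18.8 in males. Nrf2 had F1 and M2 below F2 and M1, an order held by 15 of the 37 genes (40.5%, against 19% of all genes). Of the tested genes listed with Nrf2, NQO1 and SLC7A11 had this order, and KEAP1, HMOX1 and SLC3A2 did not. The part of Nrf2 in this order was not tested. The genes that supply NADPH summed to 206, 278, 254 and 213 FPKM in F1, F2, M1 and M2.

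The calls between the sexes depended on the restriction to frog-matched unigenes. Another 85 unigenes carried symbols of the same families but had no frog match in NR, and 77 of them were under 5 FPKM in every pool. Of the 85, 35 were above 0 in both male pools and listed at 0 in both female pools (41.2%), and 14 were the other way (16.5%). Among all 18907 unigenes with a symbol and no frog match these shares were 46.5% and 5.45%. Chicken was the best match for 21, of which 0 were above 0 (F1), 1 (F2), 21 (M1) and 19 (M2). In contrast, 42, 47, 48 and 47 of the 50 frog-matched unigenes were above 0 in F1, F2, M1 and M2. A second GPX1 unigene of 701 bases, whose NR match was an alligator protein, had 2.66 FPKM in F1 and 2.06 in F2 and was listed at 0 in M1 and M2. The frog-matched GPX1 unigene of 920 bases had between 76.2 and 127 FPKM in the same pools. When the FPKM of each symbol was summed over unigenes with any NR match or none, limma called 393 genes of 12289 (50 higher in females and 343 in males). Among the 49 symbols of the rule then tested, 2 were called, GSTU16 and GSTU17, which are symbols of plant transferases, both higher in males. The origin of the unigenes found in 1 sex only was not tested.

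**Figure D5:**
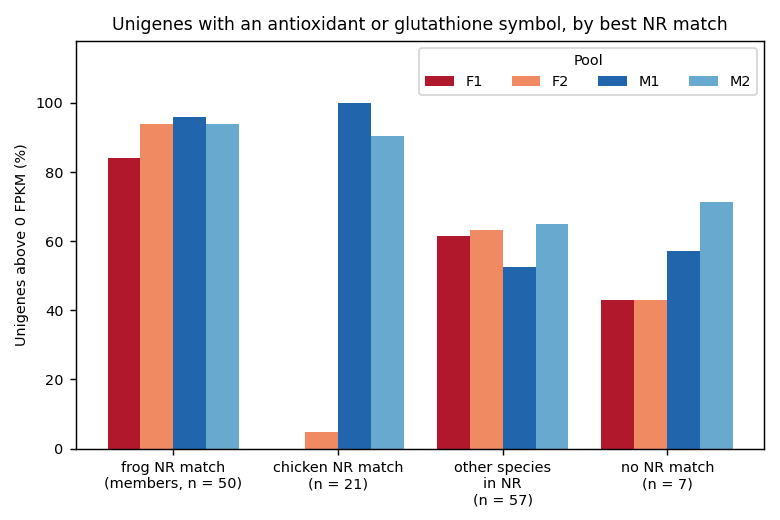
Share of unigenes above 0 FPKM in each pool, for the 50 frog-matched unigenes and for 85 with symbols of the same families whose NR match was chicken (21), another species (57) or missing (7). The chicken-matched unigenes were above 0 in 21 and 19 of 21 cases in M1 and M2 and in 0 and 1 in F1 and F2, while the frog-matched ones were above 0 in 42 to 48 of 50 cases in every pool.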

How the data were processed

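The 4 libraries were made from polyadenylated brain RNA. The authors assembled unigenes with Trinity and TGICL, mapped the reads back with Bowtie2 and deposited FPKM per unigene. The labels name cutadapt, FastQC, Salmon and edgeR, and which of these made the values was not settled. FPKM was summed per upper-case Swiss-Prot symbol over frog-matched unigenes. The 9902 genes that reached 1 FPKM in 2 or more libraries were fitted as log2(FPKM + 0.5) with limma 3.58.1 under R 4.3.3, using lmFit and a trended eBayes, with no term but sex. Benjamini-Hochberg adjustment covered all 9902 genes and the threshold was 0.05. The standard errors and p values rest on the spread between pools. That spread was taken as common to both sexes, although the female pools held 2 frogs and the male pools 4. Each gene gave 2 residual degrees of freedom, and the trend over all genes gave 2.78 prior degrees of freedom. Adding 0.5 understates the differences of low genes. The fit was tested on data simulated with normal errors at the spread that limma had estimated. Of 50 genes changed 2-fold, 24 were called, and of 50 changed 4-fold, 46 were. The same simulation held 50 genes changed 16-fold and 50 changed 64-fold, which eases the adjusted threshold for the others. In the frog data no gene was called, so these counts need not hold for a gene that changes alone. Changes smaller than 2-fold were not simulated. Since the spread came from limma itself, the simulation cannot show whether that spread is right. DEGseq, the test of the study, needs reads and was not run.

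Members and lists were chosen with earlier results of these data known, and compartments were assigned after values were seen. Genes named with a value in every pool were up to 4 per family with the highest mean, those over 1.5-fold apart without overlap, the 10 with the smallest p, and GPX1. Marker and related genes were taken from those with the highest mean or smallest p of a list, but not every such gene was named. Some were chosen after values were seen. These were CAT, NFE2L2, KEAP1, NQO1, SLC7A11, HMOX1, KRT12, KRT18, SLC1A3, FABP7, RHAG, TEK, APOA1 and EEFSEC. Of these, KEAP1, KRT12, TEK and APOA1 also had the highest mean or smallest p of their list. Alternatives were 0.1 or 1 added before the logarithm, median-ratio scaling, quantile normalization, no filter or a mean of at least 5 FPKM, other priors, a replicate block, 1 library left out, the most abundant unigene of each gene, sums over any NR match and single unigenes. Counts of pool orders under other scalings and sums with TXN or without GLUL were added after seeing the data. Sums, counts and figures were made in Python 3.11.15 (numpy 2.4.6, pandas 2.3.3; matplotlib 3.10.9).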

Additional observations from a re-analysis of the deposited data

How the results depend on the processing

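Of 33 named genes, 18 kept the sign of their sex difference under each of 17 other settings that gave a value, and 0 of 555 values passed the threshold (smallest adjusted p 0.264 in limma). Of the 22 values that changed sign, 20 came from leaving out 1 pool. The other 2 were GPX7, at 0.024 with 1 added before the logarithm and 0.070 with quantile normalization. A gene whose sexes did not overlap cannot change sign when 1 pool is left out, and some genes were named for that order. For such genes a kept sign, or a range of 1 sign with 1 pool left out, only repeats the order of the pools. With 1 pool left out, the difference ranged from -0.80 to 0.79 for GPX7, -0.37 to 0.15 for GSR, -0.81 to 0.17 for GSTK1, -3.09 to 0.10 for MGST1, -0.71 to 0.50 for PRDX6, -0.11 to 0.029 for SOD1, -1.88 to 0.35 for SOD3, -0.39 to 0.28 for TXNDC5, -0.26 to 0.082 for TXNRD2, -0.12 to 0.094 for GCLM, -0.075 to 0.30 for PRDX3, -0.25 to 0.45 for PRDX4, -0.36 to 1.09 for TXNIP, -0.13 to 0.56 for GSS and -0.015 to 0.25 for MGST2. The number of genes over 1.5-fold apart was 4, against 2 with 1 added, 2 at a mean of at least 5 FPKM, 9 with any NR match, 5 with 0.1 added, 3 after median-ratio scaling, 4 after quantile normalization (0 higher in females in the last 2) and 4 to 10 with 1 pool left out. Fold counts do not depend on the prior or the block, and none were made for these. With any NR match, 393 genes and 2 of the group were called, the thioredoxin and reductase sum differed by 0.18 (0.20 with only TXN unigenes added, chosen after seeing the data) and 6 genes had both male pools higher. That setting adds unigenes and symbols to the table. The replicate numbers tie no frogs together, and deviations of same-numbered pools correlated at -0.27 across genes. With the replicate number as a block, limma called 0 genes (smallest adjusted p 0.770), and 0 with the pools paired the other way. FPKM without reads gives no limit for a value of 0.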

Other observations

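Some genes of these families were left out of the comparison only because their best NR match was no listed frog. PRDX2, a cytosolic peroxiredoxin, had 75.1 FPKM (F1), 62.0 (F2), 66.0 (M1) and 68.2 (M2), on a unigene whose NR match was a fish protein. SRXN1, the sulfiredoxin that restores overoxidised peroxiredoxins, had 14.2, 14.6, 16.8 and 13.9 FPKM in the same order of pools. Thioredoxin (TXN) was split over a unigene matched to the toad *Bombina orientalis*, with 25.1 FPKM (F1), 27.3 (F2), 29.9 (M1) and 32.8 (M2), and another matched to a fish, with 17.7, 27.5, 30.6 and 18.8 FPKM. The TXN values of the first unigene were higher in both male pools than in both female pools (-0.25 ± 0.12, adjusted p = 0.504 in limma fitted on single unigenes), the reverse of the order of TXN2. The second TXN unigene had F1 and M2 below F2 and M1, as PRDX6 did. GPX8-B, matched to a pigeon protein, had 4.39 and 5.76 FPKM in females and 2.41 and 3.29 in males. Its difference was 0.74 ± 0.26 (adjusted p = 0.406 in limma fitted on single unigenes). A TXNL4A unigene had both female pools above both male pools, at 28.3 and 25.2 FPKM against 21.7 and 25.0. F2 (25.16 FPKM) and M2 (25.03) were nearly equal, and the difference was 0.19 ± 0.14 (adjusted p = 0.668 in limma fitted on single unigenes).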
